A study of Mus musculus with 14 samples.

Results

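The genes described here differed at least 2-fold between hepatic stellate cells (HSCs) given valproic acid (VPA) and control HSCs after 4 h of culture, and little after 64 h. Each gene was measured by its probe set with exactly 1 gene symbol, and by the brightest one on average where it had several. A gene was a member when the mean log2 level in VPA4h differed from that in Ctrl4h by at least 1, and that in VPA64h from that in Ctrl64h by less than 0.5, a difference under 1.41-fold. The rule set 9 symbols aside, 4 of which met both limits. It left 187 of 19938 genes (0.938%), 116 higher and 71 lower in VPA4h. These 2 differences chose the members, so below they are described and not tested.

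The study cultured HSCs freshly isolated from mice of strain BalbC (Balb/cByJ in the methods) by density gradient, washed away unattached cells and then cultured the rest with 2.5 mM VPA or without it. VPA4h, VPA64h, Ctrl4h and Ctrl64h have 3 arrays each and Ctrl16h has 2. The methods call the replicates of a group independent and biological. A figure legend on the control time course calls them separate HSC isolations. There is no VPA group at 16 h. All cells were wild type and kept in medium with serum, and the sources used here give no age. Levels are log2 values made by RMA, which gives every array the same distribution of probe intensities, so a change shared by most transcripts does not show.

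VPA is a branched fatty acid that inhibits histone deacetylases, the enzymes that take acetyl groups off histones and other proteins. HSCs store vitamin A in the quiescent liver, and on plastic they lose their lipid droplets, spread and turn into contractile, matrix-producing cells. A gene can therefore lose its VPA difference between 4 and 64 h in several ways. The level with VPA can go back to where the control started, the control can move to the level that VPA cells had already reached, or both can move to a new level.

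The array medians were 6.34 to 6.41 over the probe sets with a symbol, a likeness that RMA imposes. Replicates of a group correlated at 0.993 or more. The mean level of 17 stellate cell markers was 9.89 to 10.07 over the VPA4h arrays and 9.75 to 9.83 over the Ctrl4h arrays. The median difference of the 17 markers between VPA4h and Ctrl4h was 0.03. Of these markers Gfap, an intermediate filament protein of quiescent HSCs, averaged 5.63 in VPA4h and 5.68 in Ctrl4h. Both values lie below the low-value limit of 6 used here. Lrat, which esterifies vitamin A, averaged 8.01 in VPA4h and 7.23 in Ctrl4h, a larger difference than the median of the list. The 21 hepatocyte markers averaged 5.74 to 6.26 over VPA4h arrays and 5.84 to 6.27 over Ctrl4h arrays, and the 20 Kupffer cell markers 5.62 to 6.10 and 5.78 to 6.18. The 21 sinusoidal endothelial markers averaged 6.80 to 7.06 over VPA4h arrays and 6.91 to 7.12 over Ctrl4h arrays. None of the genes on these lists was called between VPA4h and Ctrl4h, beside 0.973% called higher and 0.627% lower of all genes. For lists of this size that is close to the share, so it says little about the mix of cells. In bulk RNA, fewer cells of a type and less RNA per cell cannot be told apart.

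The differences at 4 h were moderate. They lay between 1.01 and 1.83 on the log2 scale with a median of 1.12 in the 116 higher members, and between -1.60 and -1.01 with a median of -1.13 in the 71 lower members. The 3 VPA4h arrays lay apart from the 3 Ctrl4h arrays in all 116 higher members and in 69 of 71 lower members, the exceptions being Cxcl3 and Tslp. Of all genes, 17% lay apart upwards and 17% downwards. At 64 h the VPA difference ran from -0.42 to 0.50 in the higher members and from -0.49 to 0.42 in the lower members. It kept its sign in 89 of 116 higher and 56 of 71 lower members, and at 64 h the VPA arrays still lay wholly above the control arrays in 62 higher members and wholly below them in 35 lower members, against 18.6% and 17.7% of all genes. A small difference at 64 h was thus often still a separation of the arrays. Members made up 60.3% of the 310 genes past the 4 h limit.

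The split by direction depended on the scaling. As deposited 116 members were higher and 71 lower, after centring on a housekeeping list 161 and 49, and after centring on the single Gapdh probe set 27 and 283, because Gapdh itself differed and moved the median of all genes in VPA4h against Ctrl4h to -0.36. No member changed its sign at 4 h under any of the 3 centrings tried. That is no check, because each centring moved the median difference by less than the 4 h limit that every member passes. Leaving out the third Ctrl4h array raised the number of lower members to 108, among them all 71.

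The limits run through a continuous range. Just inside the 4 h limit among higher members lay Cry1 with a difference of 1.01, Stimate with 1.01 and Foxn3 with 1.01, and just outside it Lonrf3, Pdcd4 and Baz2a with 0.999, 0.999 and 0.989. Among lower members Cops7a, Dkc1 and Trmt61a lay just inside with -1.01, -1.02 and -1.03, and Gtf3c3, Med16 and Cep63 just outside with -0.998 each. At the 64 h limit Hdhd3, Agfg2 and Dcun1d4 lay just inside among higher members, with 0.50, 0.50 and 0.49, and Crip2, Arid4b and C9orf72 just outside with -0.50, 0.50 and 0.50. Runx1, Smyd5 and Cetn3 lay just inside among lower members, with -0.49, -0.48 and -0.48, and Ing5, Anp32b and Pole4 just outside with -0.52, -0.53 and -0.53.

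Transient describes only a minority of these genes if it is taken to mean that the level with VPA came back. In VPA64h the level had moved at least 0.5 towards the Ctrl4h side of VPA4h in 59 of 187 members. It lay within 0.5 of VPA4h in 97 members and at least 0.5 further out in 31. Both 64 h groups lay within 0.5 of Ctrl4h in 30 members. In 72 members, 53 higher and 19 lower, the control itself had moved by at least 1 to the side on which VPA4h lay. In 58 members, 30 higher and 28 lower, Ctrl64h lay within 0.5 of Ctrl4h. Another 48, 31 higher and 17 lower, lay between these limits, and in 9, 2 higher and 7 lower, the control had moved the opposite way. These 4 classes share Ctrl4h with the rule and carry no test.

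**Figure D1:**
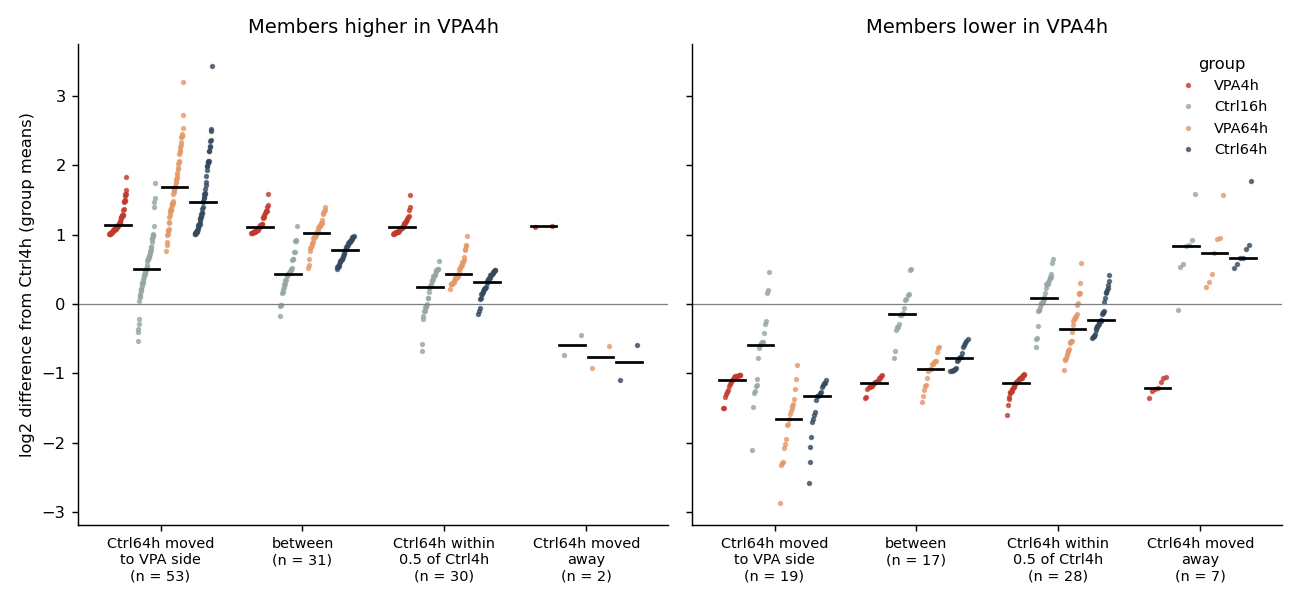
Log2 difference of each group mean from Ctrl4h for each member (points) with the class median (lines), in members higher (left) and lower (right) in VPA4h, by what the control did until 64 h. In the 53 higher members whose control moved to the VPA side, the median of Ctrl64h lies 1.47 above Ctrl4h, and in the 30 whose control stayed within 0.5 it lies 0.32 above.

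In the 53 higher members of the first kind the median level was 8.27 in VPA4h, 7.03 in Ctrl4h, 7.65 in Ctrl16h, 8.62 in VPA64h and 8.74 in Ctrl64h. The mean of Ctrl64h was at or above that of VPA4h in 35 of these 53 members and below it in the others, Wdr47 and Dnmt1 among them. In the 30 higher members whose control stayed near its start, the medians were 8.54 in VPA4h, 7.39 in Ctrl4h, 7.63 in Ctrl16h, 7.93 in VPA64h and 7.85 in Ctrl64h. VPA64h lay within 0.5 of Ctrl4h in 16 of these 30, and its arrays were still wholly above those of Ctrl64h in 20. The 28 lower members of that kind had medians of 7.0 in VPA4h, 8.21 in Ctrl4h, 8.29 in Ctrl16h, 7.91 in VPA64h and 8.12 in Ctrl64h.

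As a share of the way between Ctrl4h and VPA4h, Ctrl16h stood at a median of 0.35 in the higher members and 0.04 in the lower members, where 0 is the level of Ctrl4h and 1 that of VPA4h. Ctrl16h lay on the VPA side of Ctrl4h in 96 of 116 higher members and 36 of 71 lower members. The positions share Ctrl4h with the rule and are given as a description. The lower members' median turned to -0.07 without the first Ctrl4h array and to -0.01 without the third VPA4h array, so for them no side can be named. The order of both sets turned with the scaling, with medians of 0.16 in higher and 0.25 in lower members after housekeeping centring and 0.036 and 0.38 after Gapdh centring.

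**Figure D2:**
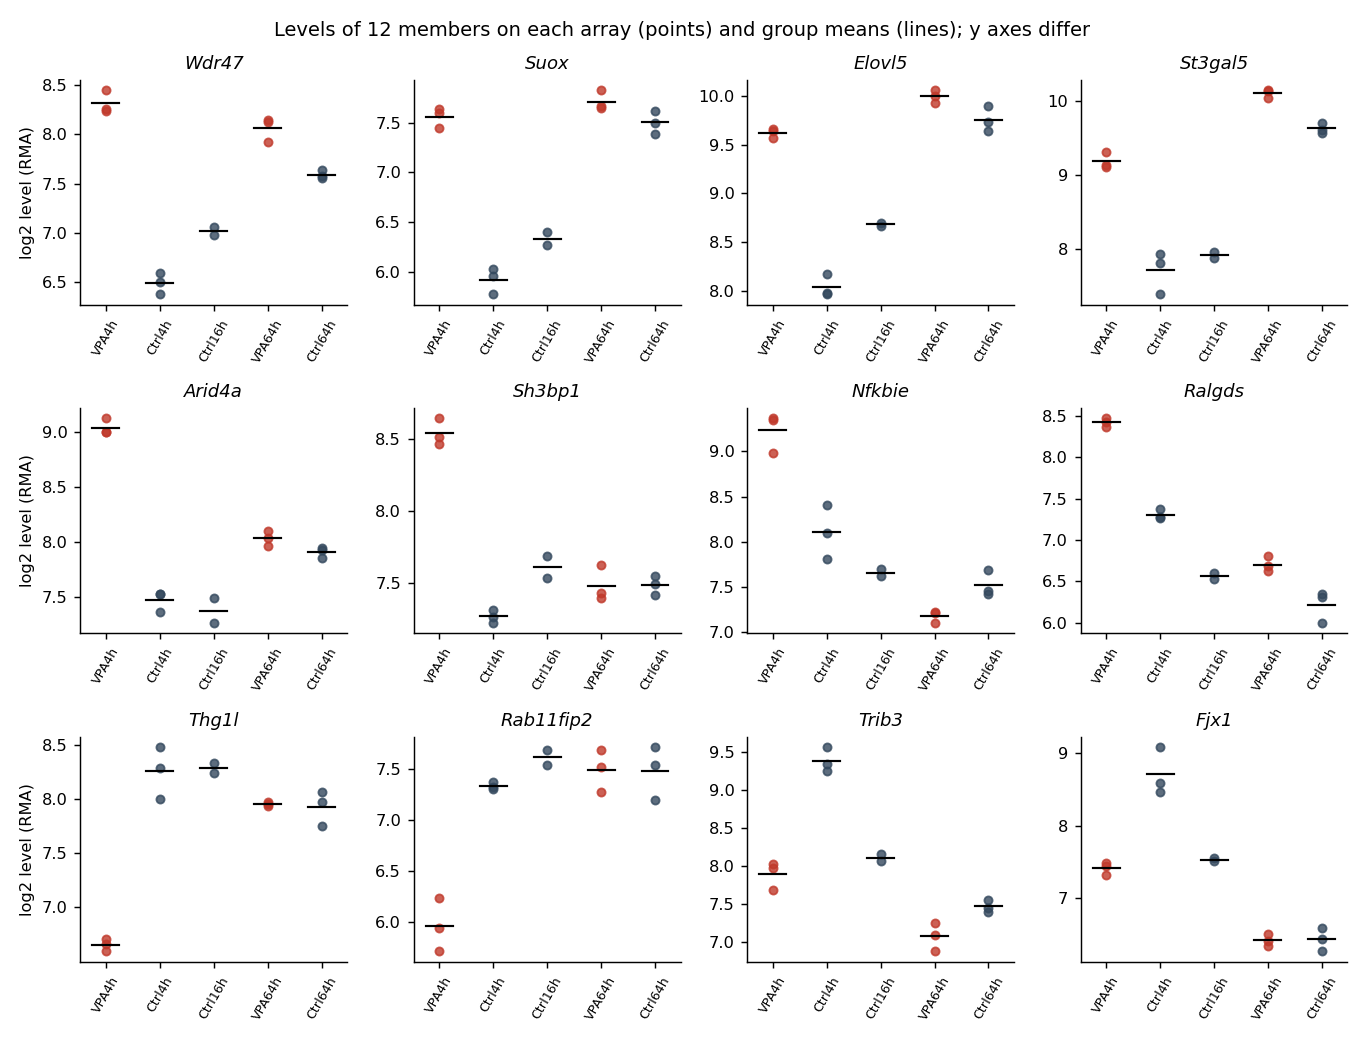
Log2 level on each array (points; red with VPA, dark without) and group means (lines) for 12 members, with a y axis of its own in each panel. In Wdr47, Suox, Elovl5 and St3gal5 the controls climb with time in culture, while in Arid4a, Sh3bp1, Nfkbie and Ralgds the VPA4h arrays stand above all other groups, and in Thg1l and Rab11fip2 they stand below all others.

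Among the higher members the largest difference was that of Wdr47, a brain-expressed protein that works with microtubules. It read 8.26, 8.24 and 8.45 in VPA4h, against 6.50, 6.37 and 6.59 in Ctrl4h, a difference of 1.83. At 64 h it read 8.15, 7.93 and 8.12 with VPA and 7.57, 7.56 and 7.63 without. The groups did not overlap at either time, and the gap shrank to 0.48 while the control level went up and the level with VPA changed little.

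Genes of lipid, sugar and energy metabolism were 10 of the higher members. They were Elovl5, Fdps, Idh1, Pygb, Pfkfb2, Ckb, Smpd2, St3gal5, St6galnac6 and Slc44a2, with differences of 1.03 to 1.58 at 4 h. In 9 of the 10 the control moved to the VPA side by 64 h, and in Pfkfb2, which sets the level of an activator of glycolysis, it moved less. Role groups were drawn up after the members were known.

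Elovl5, which lengthens polyunsaturated fatty acids, read 9.64, 9.66 and 9.57 in VPA4h, against 7.98, 8.18 and 7.96 in Ctrl4h. Control cells had 8.67 and 8.70 at 16 h. At 64 h the arrays read 9.93, 10.06 and 10.0 with VPA and 9.64, 9.90 and 9.73 without. The early level with VPA was therefore close to the one that control cells showed at 64 h. St3gal5, the enzyme that makes the ganglioside GM3, read 9.11, 9.31 and 9.14 in VPA4h and 7.38, 7.92 and 7.81 in Ctrl4h. It went higher still in both 64 h groups, to 10.15, 10.15 and 10.04 with VPA and 9.71, 9.62 and 9.57 in control. Fdps, which makes farnesyl diphosphate in the cholesterol pathway, and Idh1, which makes NADPH in the cytosol, differed by 1.09 and 1.19 at 4 h and by -0.30 and -0.09 at 64 h. Ckb, the brain-type creatine kinase, averaged 9.60 ± 0.17 in VPA4h and 8.24 ± 0.27 in Ctrl4h, and 10.96 ± 0.16 in VPA64h and 10.76 ± 0.17 in Ctrl64h (SD, n = 3 each).

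Suox, the mitochondrial enzyme that oxidises sulfite, read 7.44, 7.59 and 7.64 in VPA4h and 5.77, 6.02 and 5.95 in Ctrl4h, a difference of 1.64. By 64 h it read 7.64, 7.66 and 7.83 with VPA and 7.62, 7.5 and 7.39 without. Prdx2, a peroxide-reducing enzyme, differed by 1.16 at 4 h and by 0.17 at 64 h. The promoter windows of Suox and Elovl5, which stand for the higher members whose control level came up, are shown because their early difference is among the 4 largest and each has a single window in the table used. They are RefSeq windows of GRCm38.p6 around the start of the gene, on the minus strand at chr10:128673869-128674168 for Suox and on the plus strand at chr9:77917115-77917414 for Elovl5. Capitals mark matches on either strand to the GC box, GGGCGG. They also mark the CCAAT box, CCAAT, and the TATA box, TATAAA. The other motifs are the core of the cyclic AMP response element (CRE), TGACG, and the motif of AP-1, TGANTCA. The last is the E-box, CACGTG.
Suox: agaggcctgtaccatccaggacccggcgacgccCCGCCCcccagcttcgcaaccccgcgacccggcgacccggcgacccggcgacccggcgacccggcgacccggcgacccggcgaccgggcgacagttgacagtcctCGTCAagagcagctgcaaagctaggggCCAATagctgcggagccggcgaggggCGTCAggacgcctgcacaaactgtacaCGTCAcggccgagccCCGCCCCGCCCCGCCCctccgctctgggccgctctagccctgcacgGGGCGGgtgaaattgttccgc
Elovl5: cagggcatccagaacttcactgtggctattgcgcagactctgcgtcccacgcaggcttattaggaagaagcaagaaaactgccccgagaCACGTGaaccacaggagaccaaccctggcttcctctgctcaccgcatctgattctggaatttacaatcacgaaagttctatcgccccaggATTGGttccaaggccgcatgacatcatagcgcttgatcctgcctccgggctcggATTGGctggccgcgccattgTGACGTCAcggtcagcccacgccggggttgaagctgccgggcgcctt
The Suox window holds 5 GC boxes, 3 TGACG and 1 CCAAT. The Elovl5 window holds 2 CCAAT and 1 CACGTG with no GC box, and its 2 TGACG overlap as 1 palindrome that reads the same on both strands.

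Genes of the cytoskeleton formed a second set, with 9 higher members and differences of 1.02 to 1.83. In 6 of the 9 the control moved to the VPA side. Myl12b, a regulatory light chain of non-muscle myosin, read 10.54, 10.46 and 10.30 in VPA4h and 9.27, 9.22 and 9.36 in Ctrl4h. It was lower at 16 h, with 8.83 and 8.67, and at 64 h read 11.81, 11.74 and 11.56 with VPA and 11.60, 11.45 and 11.41 in control. Both 64 h groups thus lay above VPA4h. Myh10, the heavy chain of non-muscle myosin IIB, averaged 8.30 ± 0.09 in VPA4h and 7.18 ± 0.10 in Ctrl4h, and 9.24 ± 0.03 in VPA64h and 9.24 ± 0.06 in Ctrl64h (SD, n = 3 each). Sh3bp1, a GTPase-activating protein for Rac, behaved otherwise, reading 8.51, 8.64 and 8.46 in VPA4h and 7.32, 7.27 and 7.23 in Ctrl4h, with no array above 7.69 at the later times. Limk1, the kinase of cofilin, and Map1a, a microtubule protein, also ended within 0.5 of Ctrl4h in control cells. Unlike Sh3bp1, they stayed higher with VPA at 64 h, by 0.354 and 0.465 with arrays apart.

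Chromatin proteins stood on both sides, with 7 members higher by 1.05 to 1.57 and 7 lower by 1.11 to 1.46. Arid4a, a subunit of the SIN3 histone deacetylase complex, read 9.12, 9.0 and 9.0 in VPA4h and 7.53, 7.36 and 7.53 in Ctrl4h. The later arrays read 7.26 and 7.49 in Ctrl16h, 8.04, 7.97 and 8.10 in VPA64h, and 7.95, 7.93 and 7.85 in Ctrl64h. Its VPA4h arrays exceeded all others by a wide margin, and the level with VPA at 64 h was lower than at 4 h by a difference of -1.01. Sirt7, a NAD-dependent deacetylase of the nucleolus, differed by 1.07 at 4 h and 0.13 at 64 h. Dnmt1, the maintenance DNA methyltransferase, differed by 1.13 at 4 h and by -0.12 at 64 h. Setdb2, Phip, Brwd3 and Anp32a were the others that were higher. Lower were Smyd5, Ino80c, Ing3, Chd2, Srcap, Kat5 and Mbd3. Kat5, the acetyltransferase of the TIP60 complex, read 6.95, 7.14 and 7.11 in VPA4h and 8.22, 8.21 and 8.12 in Ctrl4h. At 64 h it read 7.34, 7.47 and 7.28 with VPA and 7.57, 7.53 and 7.61 without, so the arrays were still apart by a mean of 0.20.

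Transcription factors and cofactors numbered 15 higher members and 1 lower one, with differences of 1.01 to 1.34 among the higher. Hey2, a Notch-induced repressor, read 6.38, 6.21 and 6.07 in VPA4h and 4.94, 5.03 and 4.98 in Ctrl4h. Snai2, a repressor of epithelial genes, read 7.71, 7.70 and 7.60 in VPA4h and 6.77, 6.64 and 6.28 in Ctrl4h, and at 64 h 7.90, 8.08 and 7.69 with VPA and 7.73, 8.21 and 7.86 in control, where the groups overlapped. Foxo1, the nuclear receptors Rara and Thra, Bcl9l and Glis2 differed by 1.11 to 1.34 at 4 h and by -0.16 to 0.46 at 64 h. Bcl9 and Bcl9l, which both carry beta-catenin's transcriptional signal, were members together with differences of 1.15 and 1.11.

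The surface receptor group, drawn up with the values known, was given 8 members, all higher by 1.02 to 1.5. They were F11r, Ptch1, Fzd4, Adgrl1, Plxnb2, Cd81, Rtn4rl1 and Sema4c. F11r, the junctional adhesion molecule A, read 9.54, 9.61 and 9.22 in VPA4h and 8.24, 7.92 and 7.73 in Ctrl4h, and at 64 h 9.88, 9.91 and 9.77 with VPA and 9.53, 9.55 and 9.39 in control. Ptch1, the receptor of Hedgehog ligands and itself a target of the pathway, read 8.48, 8.49 and 8.57 in VPA4h and 7.21, 7.06 and 7.06 in Ctrl4h, then 7.62 and 7.65 in Ctrl16h, 8.17, 8.04 and 8.11 in VPA64h and 7.68, 7.63 and 7.75 in Ctrl64h. In F11r the controls climbed late, and in Ptch1 they were already at their later level at 16 h.

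Intracellular signalling held 2 genes in which all later cultures lay below both 4 h groups. Nfkbie, an inhibitor that holds NF-κB in the cytoplasm, read 9.37, 9.35 and 8.98 in VPA4h and 8.40, 8.10 and 7.80 in Ctrl4h. At 64 h it read 7.22, 7.10 and 7.21 with VPA and 7.45, 7.69 and 7.42 in control, so the arrays were apart at both times and the other way round at 64 h. Ralgds, which activates the Ral GTPases downstream of Ras, read 8.42, 8.37 and 8.47 in VPA4h and 7.37, 7.27 and 7.27 in Ctrl4h, and no later array was above 6.80. Lysosome and membrane traffic added 11 higher members, by 1.02 to 1.58. Bace1, the beta-secretase, read 9.13, 9.14 and 9.14 in VPA4h and 7.5, 7.58 and 7.57 in Ctrl4h, and 8.53 and 8.42 in Ctrl16h. Npc1, which exports cholesterol from lysosomes, the proton pump subunits Tcirg1 and Atp6v1d, and Rragd, which ties lysosomal amino acids to mTORC1, differed by 1.04, 1.35, 1.04 and 1.18.

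**Figure D3:**
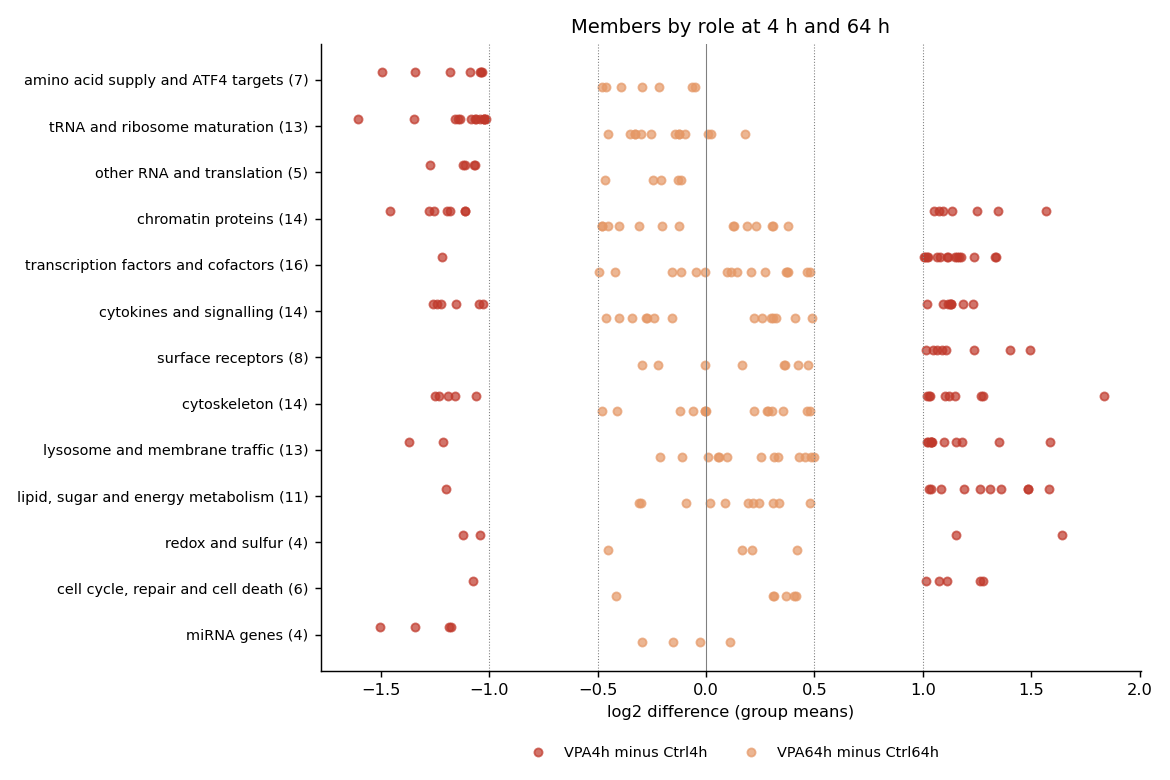
Log2 difference with VPA at 4 h and at 64 h for the 129 members placed in a role group (points, number of members in brackets). The dotted lines are the limits of the rule, 1 at 4 h and 0.5 at 64 h on either side of 0. Role groups were drawn up with the values known, and those of RNA and amino acids were given lower members only.

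Role groups were drawn up with the direction of each member known, so the direction of a whole group is a description and was not tested. Of the lower members 13 were placed in a tRNA and ribosome group, and no higher member was. They were lower by 1.02 to 1.60, with a median of -1.06 beside -1.13 for all lower members, and they were Thg1l, Trmt10a, Trmt61a, Thumpd3, Pus7l, Xpot, Rpp38, Gtf3c5, Ltv1, Mrto4, Dkc1, Exosc10 and Prmt3. Thg1l, which adds a guanosine to the start of histidine tRNA, had the largest decrease of all members. It read 6.59, 6.70 and 6.67 in VPA4h and 8.48, 8.29 and 8.01 in Ctrl4h. Later arrays read 8.33 and 8.25 in Ctrl16h, 7.93, 7.95 and 7.98 in VPA64h and 7.98, 7.75 and 8.07 in Ctrl64h. The VPA4h arrays were below every other array by more than 1, and at 64 h the groups overlapped. Ltv1, needed for assembly of the small ribosomal subunit, read 7.48, 7.32 and 7.32 in VPA4h and 8.79, 8.67 and 8.70 in Ctrl4h. At 64 h it read 7.78, 7.73 and 7.83 with VPA and 7.72, 7.70 and 7.90 in control, between the 4 h levels and nearer to that of VPA4h.

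Amino acid supply formed the second lower group. It held Trib3, Asns, Mars1, Chac1, Slc7a11, Mthfd2 and Slc1a4, all lower by 1.03 to 1.49, and most are known targets of ATF4, the factor that is translated when amino acids run short. Trib3, a pseudokinase that damps ATF4 signalling, read 7.68, 8.02 and 7.97 in VPA4h and 9.56, 9.33 and 9.25 in Ctrl4h, then 8.15 and 8.07 in Ctrl16h. At 64 h it read 7.09, 7.25 and 6.87 with VPA and 7.39, 7.55 and 7.45 in control. Control cells at 16 h thus lay close to VPA4h, though still above every VPA4h array. Asns, which makes asparagine, read 9.91, 9.77 and 9.82 in VPA4h and 11.36, 11.10 and 11.07 in Ctrl4h. Its controls stayed high at 16 h, with 11.56 and 11.38, and at 64 h the arrays read 10.55, 10.71 and 10.67 with VPA and 10.85, 10.98 and 10.98 without. Chac1, which breaks down glutathione, read 8.80, 8.89 and 8.85 in VPA4h and 10.26, 9.86 and 9.69 in Ctrl4h, with 7.89 and 7.76 already in Ctrl16h. In 5 of the 7 the control had moved to the VPA side by 64 h, and the exceptions were Asns and Mars1.

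The stress response list holds ATF4 itself and some of its targets, and also heat shock, antioxidant and metallothionein genes, so it is no list of ATF4 targets. It had 24 measured genes. Of these 5 were called lower and none higher in VPA4h, beside 0.627% lower and 0.973% higher of all genes, and 4 of the 5 are members: Trib3, Asns, Chac1 and Nqo1. The list's median difference was -0.37, beside -0.03 for all genes. The fifth, Herpud1, a protein of endoplasmic reticulum quality control, stayed 1.27 lower in VPA64h. Atf4 averaged 10.26 in VPA4h and 10.80 in Ctrl4h, and Ddit3, which encodes CHOP, 8.75 and 8.31, neither past the fold limit. Members of this list were picked by the same contrast, so the count describes them only. The promoter windows of Trib3 and Asns are shown as the 2 amino acid genes with the largest difference. They lie on the minus strand at chr2:152344011-152344310 and chr6:7693160-7693459 (RefSeq, GRCm38.p6), with capitals marking the same motifs.
Trib3: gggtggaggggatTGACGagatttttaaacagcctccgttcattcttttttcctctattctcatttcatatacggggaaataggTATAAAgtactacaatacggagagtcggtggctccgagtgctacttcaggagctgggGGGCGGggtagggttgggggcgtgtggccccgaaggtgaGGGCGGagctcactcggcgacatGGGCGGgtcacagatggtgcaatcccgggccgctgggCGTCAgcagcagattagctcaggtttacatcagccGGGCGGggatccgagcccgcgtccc
Asns: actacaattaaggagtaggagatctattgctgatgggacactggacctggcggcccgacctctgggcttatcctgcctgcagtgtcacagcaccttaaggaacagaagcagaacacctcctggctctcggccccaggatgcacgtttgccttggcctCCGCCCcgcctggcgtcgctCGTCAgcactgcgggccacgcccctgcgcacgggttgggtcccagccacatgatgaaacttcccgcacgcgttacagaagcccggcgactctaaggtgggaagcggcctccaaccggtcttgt
The Trib3 window holds 4 GC boxes, 2 TGACG and 1 TATAAA, and the Asns window 1 GC box and 1 TGACG.

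Other lower members had varied roles. Rab11fip2, which links recycling endosomes to motors, read 5.93, 5.71 and 6.24 in VPA4h and 7.30, 7.37 and 7.32 in Ctrl4h, with all later arrays between 7.19 and 7.72. Ints7, an Integrator subunit, and Tm4sf1, a surface protein of migrating cells, likewise lay near Ctrl4h in every later group. Smyd5, a methyltransferase, kept a difference of -0.48. Fjx1, a Golgi kinase related to Drosophila four-jointed, read 7.32, 7.44 and 7.49 in VPA4h and 9.08, 8.59 and 8.46 in Ctrl4h, and 6.34, 6.42 and 6.51 in VPA64h and 6.59, 6.27 and 6.45 in Ctrl64h. Its control was at 7.55 and 7.51 by 16 h. Spry2, an inhibitor of receptor tyrosine kinase signalling, read 9.26, 9.12 and 9.28 in VPA4h and 10.40, 10.23 and 10.11 in Ctrl4h, and its later groups averaged 9.71 in Ctrl16h, 8.81 in VPA64h and 8.96 in Ctrl64h. Mettl4, an adenine methyltransferase, and the matrix collagen Col12a1 had controls that moved the opposite way. Mettl4 averaged 4.85 ± 0.09 in VPA4h, 6.20 ± 0.11 in Ctrl4h and 7.0 ± 0.10 in Ctrl64h, and Col12a1 6.63 ± 0.29 in VPA4h, 7.75 ± 0.31 in Ctrl4h and 9.52 ± 0.32 in Ctrl64h (SD, n = 3 each).

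Cxcl3, a neutrophil-attracting chemokine, read 8.26, 7.78 and 7.09 in VPA4h and 10.13, 8.87 and 7.90 in Ctrl4h, and Tslp, an epithelial-type cytokine, 6.87, 6.37 and 5.72 in VPA4h and 8.82, 7.38 and 6.50 in Ctrl4h. The replicates of both spread over more than 1 within each group and the groups overlapped, although every VPA4h array lay below the Ctrl4h array of the same number.

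Of the members 4 are miRNA genes, all lower, and they were chosen for naming after their values were seen. Mir18, Mir19a and Mir20a belong to the Mir17 cluster on chromosome 14, a group of miRNAs made from 1 transcript and known for promoting cell division, and Mir125b-1 lies on chromosome 9. A probe set on such a gene reads the transcript around the hairpin, not the mature miRNA. The main mature forms are shown (RefSeq, GRCm38.p6, all on the plus strand), with the seed, bases 2 to 8, in capitals. They lie at chr14:115043867-115043889, chr14:115044183-115044205, chr14:115043684-115043706, chr14:115044048-115044070 and chr9:41581940-41581961 in this order.
miR-18a-5p: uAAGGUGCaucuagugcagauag
miR-20a-5p: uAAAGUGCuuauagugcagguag
miR-17-5p: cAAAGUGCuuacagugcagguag
miR-19a-3p: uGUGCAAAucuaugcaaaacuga
miR-125b-5p: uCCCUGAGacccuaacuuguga
Of these, miR-20a-5p and miR-17-5p share a seed, and Mir17, which is no member, is shown for that reason. The seeds of the other 3 differ from it and from one another.

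Mir18 read 5.40, 4.68 and 5.73 in VPA4h and 7.19, 6.42 and 6.70 in Ctrl4h, a difference of -1.50. Mir20a read 5.34, 4.83 and 5.60 in VPA4h and 7.09, 6.30 and 6.40 in Ctrl4h. Mir19a, under 6 in every group mean, read 4.22, 3.84 and 4.43 in VPA4h and 5.90, 4.92 and 5.22 in Ctrl4h. The other probe sets of the cluster were lower too, by 0.53 for Mir17, 0.85 for Mir19b-1 and 0.55 for the host transcript Mir17hg, short of the limit of 1. Between 16 h and 64 h of control culture 3 probe sets of the cluster were called lower. Mir17 fell by 1.09 and Mir19b-1 by 1.13 (limma adjusted p = 2.4e-05 and 0.0019), and neither is a member. The member Mir20a fell by 1.14 ± 0.34 (SE, limma adjusted p = 0.013), with non-overlapping arrays of 4.67, 5.11 and 4.93 in Ctrl64h and 5.56 and 6.52 in Ctrl16h. Without the second Ctrl16h array Mir20a fell by 0.66 with an adjusted p of 0.22. Mir18 and Mir19a had differences of -0.87 and -0.75 with adjusted p-values of 0.084 and 0.054. Mir125b-1, with a group mean above 6 only in Ctrl4h (6.01), differed by -1.18 at 4 h and by 0.11 at 64 h. The probe set of Mir125b-2, whose mature 5p form is the same, read 2.84 in VPA4h and 2.91 in Ctrl4h. It lay below the low-value limit of 6 in every group, so it cannot be set against Mir125b-1.

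**Figure D4:**
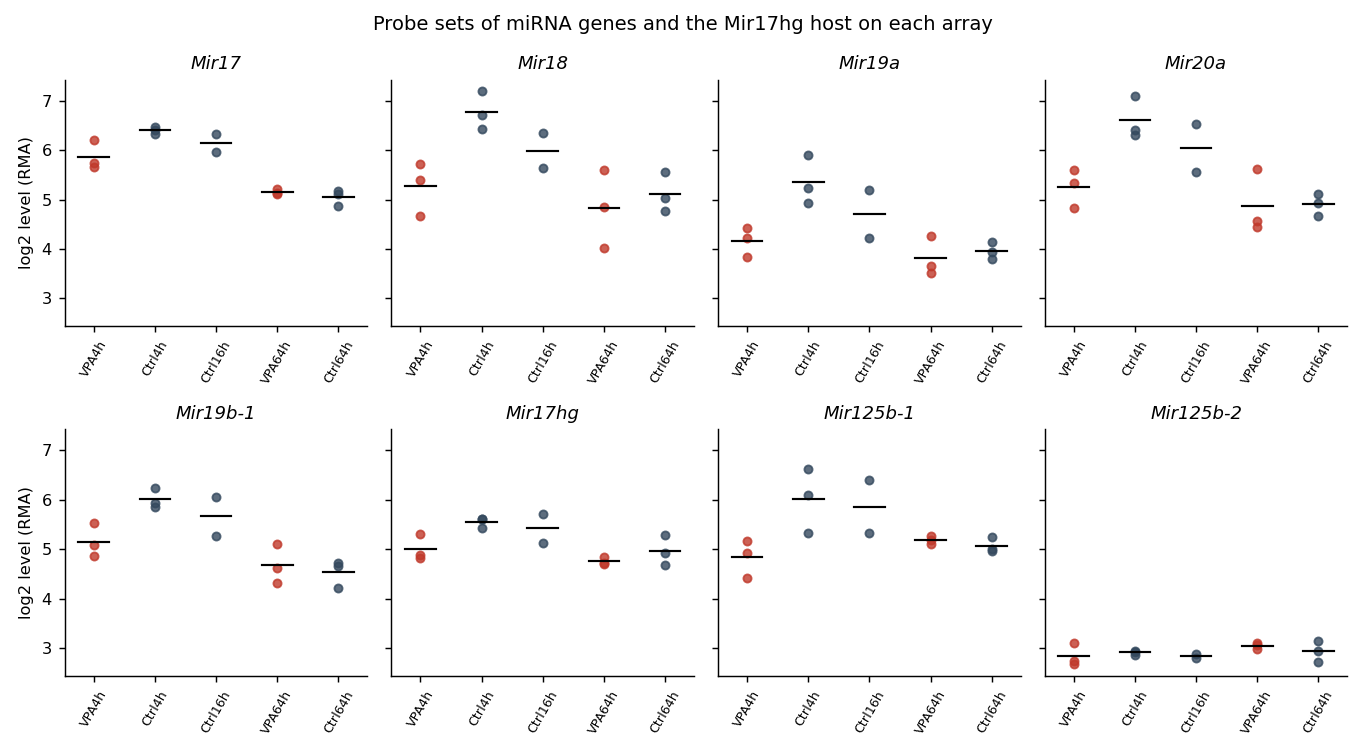
Log2 level on each array (points; red with VPA, dark without) and group means (lines) for the probe sets of the Mir17 cluster, its host Mir17hg, Mir125b-1 and Mir125b-2, on a shared y axis. All 6 probe sets of the cluster have their 3 VPA4h arrays below their 3 Ctrl4h arrays. Those of Mir125b-2 overlap, at levels below the low-value limit of 6 in every group.

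Control culture between 16 h and 64 h is a contrast that the rule did not use, though not an independent one. Ctrl16h took no part in the differences that chose the members, only, with all other arrays, in the choice of the brightest probe set. Ctrl64h did enter the difference at 64 h. A small VPA difference at 64 h after a large one at 4 h favours genes whose control moved to the VPA side. The direction of the counts below is therefore a description of the members and supports nothing further. Ctrl64h against Ctrl16h was fitted with limma over all 23410 probe sets with a symbol and called at an adjusted p under 0.05 and 2-fold. Of the 116 higher members 30 rose in Ctrl64h (25.9%) and none fell, where 4.44% of all genes rose and 1.01% fell, or 6.78% and 1.58% of genes with a group mean of at least 6. Among the 71 lower members none rose and 9 fell (12.7%). At an unadjusted p under 0.05 and any size, 75 higher members rose and 6 fell, and 5 lower members rose and 42 fell, beside 21.8% of all genes that rose and 27.6% that fell. The one-way variance test named in the methods covers all 5 groups at once, so the 4 h difference that chose the members enters it. On the same values and at 2-fold it gave counts of 30, 0, 0 and 9, which are no separate check. The median change was 0.52 in the higher and -0.48 in the lower members, beside -0.07 over all genes. With an adjusted p under 0.05 at any size, 70 higher members rose and 38 lower members fell, beside 19.5% and 22.4% of all genes. Centring on Gapdh gave 22 rises and 12 falls.

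**Figure D5:**
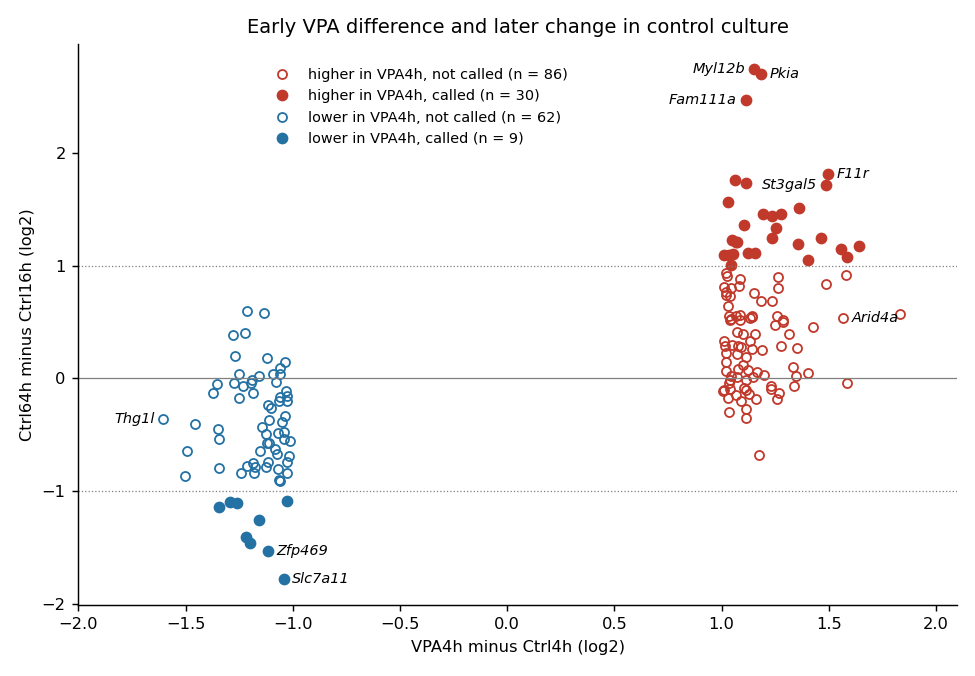
Log2 change between 16 h and 64 h of control culture (y axis, Ctrl64h minus Ctrl16h) against the VPA difference at 4 h (x axis) for each member, with called members filled. The 30 called rises are all among members higher in VPA4h and the 9 called falls all among members lower in VPA4h, and the gap in the middle is the 4 h limit of the rule.

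Among members the largest rise was that of Myl12b, by 2.74 ± 0.11 (SE, limma adjusted p = 1.1e-10), followed by Pkia, an inhibitor of protein kinase A, by 2.70 ± 0.18 (limma adjusted p = 2.1e-08). Pkia read 9.13, 9.82 and 9.27 in Ctrl64h and 6.77 and 6.64 in Ctrl16h, and in VPA4h only 7.22, 7.25 and 7.0, so its early difference was small beside the later change. Fam111a, a protease that acts at replication forks, rose by 2.47 ± 0.19, F11r by 1.81 ± 0.14 and Fkbp14, a collagen chaperone of the endoplasmic reticulum, by 1.76 ± 0.09. Snai2 rose by 1.74, St3gal5 by 1.72, Slc44a2, a choline transporter-like protein, by 1.56, Ckb by 1.51 and Idh1 by 1.46. By role, 5 of 10 higher members in lipid, sugar and energy metabolism rose, 2 of 2 in redox, 3 of 8 surface receptors, 3 of 9 in the cytoskeleton, 1 of 5 in the cell cycle group, 1 of 8 in signalling, 1 of 11 in membrane traffic, 1 of 15 transcription factors and cofactors and 0 of 7 chromatin proteins. Differences between role groups were not tested.

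Among members the largest fall was that of Slc7a11, the cystine importer, by 1.78 ± 0.27 (SE, limma adjusted p = 7.9e-05). It read 6.17, 6.02 and 6.32 in Ctrl64h and 8.06 and 7.84 in Ctrl16h, while its VPA4h arrays read 6.57, 5.98 and 6.77 and its Ctrl4h arrays 8.01, 7.10 and 7.35. The 64 h control thus had the level that VPA cells had at 4 h. Zfp469, a zinc finger protein, fell by 1.53 ± 0.12, Gbe1, the glycogen branching enzyme, by 1.46 ± 0.13, Runx1, a transcription factor of blood and mesenchymal cells, by 1.40 ± 0.16 and Prmt3, which methylates a ribosomal protein, by 1.25 ± 0.10. Fjx1 and Trmt61a, a tRNA methyltransferase, fell by 1.10 and 1.08. Cxcl3 fell by 1.11 with an adjusted p of 0.049, and this call was lost in 14 of 24 alternatives, with adjusted p-values of 9.5e-05 to 0.16 over them.

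A like change in control culture was counted in genes whose VPA difference stayed at 64 h. Of the other 123 genes past the 4 h limit, 73 were higher in VPA4h, and 20 of these (27.4%) rose in Ctrl64h against Ctrl16h and none fell. The other 50 were lower, of which 4 rose and 4 fell. By class, the control moved to the VPA side in 30 of the 73 (41.1%) and 4 of the 50 (8.0%), beside 45.7% of higher and 26.8% of lower members. The difference between the 2 sets was not tested. Of these other genes 115 of 123 kept the sign of their VPA difference at 64 h.

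The 25 gene lists covered early responses and other functions such as housekeeping, and members were 0.938% of all genes. The stress response list had 4, another 10 lists had 1 or 2 and the remaining 14 had none. Among 18 histone deacetylases Sirt7 was the only member and the only gene called in VPA4h, and among 25 other histone and DNA modifying enzymes Dnmt1 was called higher and Kat5 lower. None was called in VPA4h among 24 immediate early factors, 16 Kruppel-like factors, 17 interferon response genes, 26 matrix genes and 20 contractile genes. None of them is a member. Of all genes 0.973% were called higher and 0.627% lower in VPA4h, so an empty list of this size is close to that share. In the contractile list 3 genes were called lower in VPA64h, and in the matrix list 2 higher and 2 lower, beside 0.682% higher and 1.18% lower of all genes. Among 17 clock genes Cry1, a repressor of the clock, read 7.86, 8.28 and 8.16 in VPA4h and 6.86, 7.25 and 7.18 in Ctrl4h, and among 24 Notch and Wnt genes Fzd4, a Wnt and norrin receptor, read 8.12, 8.21 and 8.25 in VPA4h and 6.99, 6.86 and 7.02 in Ctrl4h.

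Promoter windows were found in RefSeq for 93 of 116 higher members (127 windows) and 56 of 71 lower members (77 windows), and were compared with all 32544 windows of the table and the 19099 of genes on the array. The GC box GGGCGG stood in 76.4% of windows of higher members and 53.2% of those of lower members, beside 35.9% of all windows and 49.3% of those of genes on the array. For the CRE core TGACG the shares were 24.4% and 45.5%, beside 20.9% and 25%, and for the E-box CACGTG 10.2% and 23.4%, beside 7.17% and 8.26%. TATAAA stood in 3.94% of windows of higher and 10.4% of those of lower members, beside 13.6% and 11.5%. The AP-1 motif TGANTCA had shares of 4.72% and 5.19%, beside 7.79% and 6.89%. The CCAAT box had 49.6% and 44.2%, beside 37.4% and 37.4%, so it was more frequent in both sets of members. An NF-κB motif had 10.2% and 13.0%, beside 8.49% and 9.5%. The CArG box, a run of A and T between CC and GG, had 0% and 0%, beside 1.64% and 1.41%. Both strands were searched, and windows of 1 gene overlap in part. The median GC content was 62.7% and 59.3%, beside 53% and 57.7%, and its part in these shares was not tested. A match is a run of letters and does not show that a factor binds there.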

How the data were processed

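RNA of 14 HSC cultures was measured on Affymetrix mouse gene arrays. The authors deposited log2 values made by RMA. The study's methods name GeneSpring GX for this step and the submitters' notes Affymetrix Expression Console. Of 35557 probe sets 23410 have a symbol and were tested, and 21789 have exactly 1. Genes were named from a platform annotation that can be old. The members, lists and role groups were chosen with earlier results of these data known. The authors' values were used unchanged in limma 3.58.1 (R 4.3.3), in a single model of 5 groups (residual degrees of freedom 9, prior 6.52) and Benjamini-Hochberg adjustment over the 23410, and all tests are two-sided. The fit was tested on simulated data. Same-numbered VPA and control arrays deviated together weakly from their group means (r of 0.16, 0.28 and 0.14 at 4 h, and 0.16, 0.16 and 0.17 at 64 h). Different-numbered arrays were not compared, so this check cannot show that a number stands for a single isolation. Calls of list genes between VPA and control groups come from the model without the replicate number. With that number as a block, an alternative chosen after seeing the data, none of them changed. The number of arrays limits the precision. Named genes were drawn from the 12 largest increases and 12 largest decreases at 4 h with arrays apart, up to 4 members of each list, the 5 largest rises and falls in control culture, and the neighbours of each limit. Other members were named by role after their values were seen.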

Additional observations from a re-analysis of the deposited data

Results flagged for a closer look

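In 12 members the arrays lay apart at 4 h and again at 64 h, but in opposite directions. These are 9 of 116 higher members (7.76%) and 3 of 71 lower members (4.23%), beside 17.7% of all genes whose VPA64h arrays lay wholly below and 18.6% wholly above those of Ctrl64h. Their choice limits the size of the difference at 64 h but not its sign, and the change of direction between the times was not tested. Of the members higher in VPA4h, Ajuba, a LIM protein of cell junctions, was lower in VPA64h than in Ctrl64h by a difference of -0.42, with 8.50, 8.51 and 8.33 in VPA64h against 8.95, 8.82 and 8.83 in Ctrl64h. Nfkbie differed by -0.34 at 64 h, Smpd2, a neutral sphingomyelinase, by -0.31, Fdps by -0.30, Rtn4rl1, a Nogo receptor relative, by -0.30, Rassf3 by -0.27, Fzd4 by -0.22, Dnmt1 by -0.12 and Fkbp14 by -0.084. In Ajuba, Smpd2, Fdps, Fzd4, Dnmt1, Fkbp14 and Rtn4rl1 the control had passed to the VPA side by 64 h. Of the members lower in VPA4h, Ift52, a protein of cilium transport, was higher in VPA64h by 0.29, Itfg2 by 0.17 and Cops7a, a COP9 signalosome subunit, by 0.12. Ift52 read 8.42, 8.40 and 8.51 in VPA64h against 8.10, 8.23 and 8.13 in Ctrl64h. With 3 arrays a side, 62 higher and 35 lower members lay apart at 64 h in the direction of the 4 h difference.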

How the results depend on the processing

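The differences at 4 h kept their sign under all 19 settings run on them. By the rule each is at least 1 in size, so this is no check. Omitting a Ctrl16h, Ctrl64h or VPA64h array does not touch them, and the low-value limit of 6 left 186 of the 187. In size, 175 were counted as moved under Gapdh centring, 29 under housekeeping centring and 5 with the mean of all probe sets of a gene. Of the 39 calls between Ctrl64h and Ctrl16h, 29 held under all 24 settings, and Cxcl3, Fbxo33, Magee1, Mir20a, Snx30, Trp53i11, Elovl5, Myh10, Prdx2 and Tango2 were lost under at least 1, the last 4 only on the Gapdh scale. The 24 include the one-way variance test, which takes in the 4 h difference and is no separate check. Same-numbered Ctrl16h and Ctrl64h arrays did not deviate together (r of -0.07 and -0.14), and with the replicate number as a block 29 members were higher and 8 lower. Without the fold limit 74 members were higher in Ctrl64h and 41 lower (of the higher members 70 rose and 3 fell, of the lower members 4 rose and 38 fell). Gapdh centring gave 27 higher and 283 lower members, 132 of them with the control moved to the VPA side. A 4 h limit of 0.8 gave 269 and 196 members (155 with the control moved to the VPA side, 168 with it near its start), and 1.5 gave 7 and 2 (6 and 2). A 64 h limit of 0.25 gave 55 and 36 (38 and 30), and a limit of 1 gave 177 and 109 (99 near the start). The median Ctrl16h position was 0.32 in higher members after median centring, 0.16 and 0.25 in higher and lower members after housekeeping centring, 0.036 and 0.38 after Gapdh centring, 0.34 and -0.0088 with the mean of all probe sets of a gene, 0.25 and 0.25 at a 4 h limit of 1.5, and 0.29 and 0.30 in higher members at 64 h limits of 0.25 and 1. The cause of these shifts was not tested. Leaving out 1 array at a time gave 110 to 128 higher and 58 to 108 lower members, positions of 0.30 to 0.37 and -0.071 to 0.12 (-0.0086 without the third VPA4h array and the lowest without the first Ctrl4h array), 70 to 80 with the control moved to the VPA side and 51 to 73 near its start, 29 to 30 members higher in Ctrl64h and 7 to 11 lower. Of the members 107 stayed in under all 14 omissions.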

Other observations

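Some further members had the following values. Bex3, a small signalling adaptor encoded on the X chromosome, averaged 8.27 ± 0.08 in VPA4h and 7.03 ± 0.35 in Ctrl4h, and 9.48 ± 0.38 in VPA64h and 9.30 ± 0.06 in Ctrl64h (SD, n = 3 each). Hspa4l, a heat shock protein, averaged 8.06 ± 0.05 in VPA4h and 6.80 ± 0.09 in Ctrl4h, and 9.14 ± 0.13 in VPA64h and 8.65 ± 0.08 in Ctrl64h (SD, n = 3 each). Both rose in Ctrl64h against Ctrl16h, by 1.44 and 1.34. Casp6, an executioner caspase, rose by 1.46 and differed by 1.28 with VPA at 4 h and by 0.42 at 64 h. P2rx4, an ATP-gated channel, was lower by 1.22 in VPA4h and differed by -0.40 at 64 h. Other probe sets existed for 7 members, 8 in all, and all 8 had the sign of the member's chosen probe set at 4 h, although only 2 passed the limit of 1 and all 8 lay under the limit at 64 h. The weakest were Map3k12 with 0.16 and Rmdn2 with -0.34. Among probe sets outside the rule, 3 of 1621 with several symbols met both limits, 2 higher and 1 lower, and 48 of 12147 with no symbol, 29 higher and 19 lower.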
